A study of Mus musculus with 12 samples.

Results

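Mouse chromosome 7 carries the class I odorant receptor (OR) cluster, and it also carries class II OR genes that lie outside that cluster on either side. The probe sets described here are the class II probe sets of chromosome 7 in the OR list of the study, without those whose first symbol is that of a pseudogene, and they number 114 of 1072 class II probe sets (pseudogenes included) and of 35556 probe sets on the array. The choice used the class and position of the genes and no measured value. Of the 114 probe sets, 102 carry 1 gene symbol and 12 carry several, and those are named below with all their symbols. Each of the 12 mice was 1 array of RNA from the main olfactory epithelium (MOE), the nasal tissue that holds the olfactory sensory neurons (OSNs).

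The ΔJ group was 6 mice homozygous for a CRISPR-Cas9 deletion of the J element, a conserved sequence of 1.98 kb between genes at the centromeric side of the class I genes, and the wild-type group was 6 littermates. Strain is labelled C57BL/6 in both groups. The deletion was made in hybrid B6C3F1 eggs, all ΔJ mice descend from 1 founder, and the mice came from the second backcross to C57BL/6, so that variants of the other parental strain linked to the deletion on chromosome 7 cannot be told apart from the deletion itself. Of the 6 ΔJ mice, 3 were male and 3 female, and of the 6 wild-type mice, 2 were male and 4 female. Tissue was taken at 30 days of age (P30), except in 1 ΔJ mouse and 2 wild-type mice of 33 days (P33).

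ORs are receptors of the G protein-coupled family, and a mature OSN is known to transcribe a single allele of a single OR gene. Class I receptors are related to those of fish and class II receptors make up the larger, terrestrial part of the repertoire. The choice is known to depend on enhancers, of which the J element is a candidate for class I genes, and class II clusters lie under the influence of other enhancers spread over many chromosomes. The class II genes of chromosome 7 share a chromosome with the J element, and the question put to the data was whether their RNA differed in its absence, and whether any difference depended on distance.

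A probe set is the group of probes that reports on a gene, and the deposited values are log2 signals. Levels below are those log2 signals relative to the 75th percentile of the same array, so that a difference of 1 is a 2-fold difference in signal. Genotypes were compared with limma in a fit to every OR probe set, with Benjamini-Hochberg adjustment over the same set, and a probe set was called at an adjusted p under 0.05 with a fold change beyond 1.3. In bulk tissue, fewer OSNs choosing a gene and less RNA in each of them cannot be told apart. Of the 114 probe sets, 106 had a mean level above -3.72, the mean of Y-linked *Kdm5d* in the 7 females, which served as a gauge of background. The gauge is 1 probe set, its values in the females ran from -4.23 to -3.05, and 16 of the 114 lay below the highest of them.

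The 114 probe sets form 7 groups along the chromosome, separated by gaps of more than 0.5 Mb. On the centromeric side of the J element lie *Olfr1344* to *Olfr1350* (cluster 1, 8 probe sets, about 96 Mb away), *Olfr291* and *Olfr290* (cluster 2), *Olfr310* to *Olfr292* (cluster 3, 15 probe sets) and the pair *Olfr520* and *Olfr521* (cluster 4), which is the closest. On the telomeric side lie *Olfr693* to *Olfr716* (cluster 5, 24 probe sets), *Olfr467* to *Olfr516* (cluster 6, 41 probe sets) and *Olfr522* to *Olfr541* (cluster 7, 22 probe sets). Distance was measured between the start of a gene and the centre of the deletion at 102.51 Mb (mm10), and it ran from 2.74 Mb for *Olfr521* to 96.1 Mb at the far end of cluster 1.

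The sequences around the starts of the members that flank the class I cluster are shown because these are the class II genes closest to the deletion on each side. Each window runs from 250 bases before to 50 bases after the annotated gene start and comes from RefSeq (GRCm38.p6). It is written 5′ to 3′ on the gene's strand. Capitals mark matches to the homeodomain core motifs, which are TAATTA (the same on either strand), the related TAATTG, then TAATGA, and finally TAATGG, searched on both strands. *Olfr521*, chr7:99766914-99767213, plus strand, and *Olfr693*, chr7:106678436-106678735, minus strand, hold 2 matches each. In each window 1 match lies upstream of the gene start, whereas TAATGG lies after the start in *Olfr521* and spans it in *Olfr693*.
Olfr521: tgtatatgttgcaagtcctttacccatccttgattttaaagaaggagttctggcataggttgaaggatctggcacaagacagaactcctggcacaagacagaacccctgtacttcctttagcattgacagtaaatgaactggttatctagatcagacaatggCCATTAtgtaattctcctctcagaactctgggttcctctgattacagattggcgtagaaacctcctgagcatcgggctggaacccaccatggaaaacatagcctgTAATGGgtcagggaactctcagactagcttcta
Olfr693: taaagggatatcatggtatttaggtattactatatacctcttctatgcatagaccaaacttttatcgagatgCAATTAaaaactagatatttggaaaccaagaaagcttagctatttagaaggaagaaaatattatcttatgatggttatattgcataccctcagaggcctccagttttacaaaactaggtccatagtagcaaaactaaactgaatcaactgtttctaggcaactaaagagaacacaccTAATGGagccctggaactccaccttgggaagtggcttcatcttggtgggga

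Windows were found for 95 first symbols, which serve 100 of the 114 probe sets. In 74 of the 95 windows the annotated start coincides with an ATG, so that these windows end shortly after the start codon and hold no transcription start site mapped apart from it. The same holds for 72.2% of the windows of class II genes on other chromosomes and 74.5% of those of intact class I genes. Of all windows only 5.83% start at an ATG, so they are mostly of another kind. At least 1 of the 4 motifs was present in 55.8% of the windows of class II genes on chromosome 7, in 62.9% of those of class II genes on other chromosomes, in 55.7% of those of intact class I genes and in 25.3% of all windows. The mean AT content of the same windows was 62.8%, 64.3%, 62.4% and 46.2%, in that order, which moves with the share of windows that hold a motif. The part of base composition in these shares was not tested. Among windows whose start is not an ATG, the shares with a motif were 61.9%, 68.2%, 51.9% and 24.3%, in the same order. On chromosome 7 this is 13 of 21 windows. The window of *Olfr693*, with an ATG just after the start, is among the 21. The palindromic Olf/Ebf motif was present in 1.05% of the windows on chromosome 7 and in 0.904% of all windows. The 56 probe sets with a homeodomain match had a median log2 fold change of -0.07, and the 44 with no match had a median of -0.09.

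No class II probe set of chromosome 7 was called between ΔJ and wild-type mice (0 of 114, against 6.27% of all OR probe sets). None had an unadjusted p under 0.05 from limma either, against 8.33% of all OR probe sets, and in none were the ΔJ mice all below or all above the wild-type mice, against 5.36%. Intact class I probe sets make up 74 of the 76 calls behind the share over all OR probe sets. Of the 877 class II probe sets on other chromosomes 0 were called as well, 0.684% had an unadjusted p under 0.05 and 0 were without overlap, so the absence of calls was shared with them. The estimated ΔJ signal was 82.0% to 117.7% of wild-type, and the median estimate was 94.9%. In 46 of 114 probe sets the 95% confidence interval lay within 1.3-fold in either direction, against 37.6% of all OR probe sets. The share was 42.2% for class II probe sets on other chromosomes. For the rest of the 114 the interval still held a change of 1.3-fold in at least 1 direction. In all 114 the interval excluded a 2-fold decrease of the signal. Of these, 8 had a mean level below the background gauge, where a loss of RNA may not lower the signal.

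**Figure D1:**
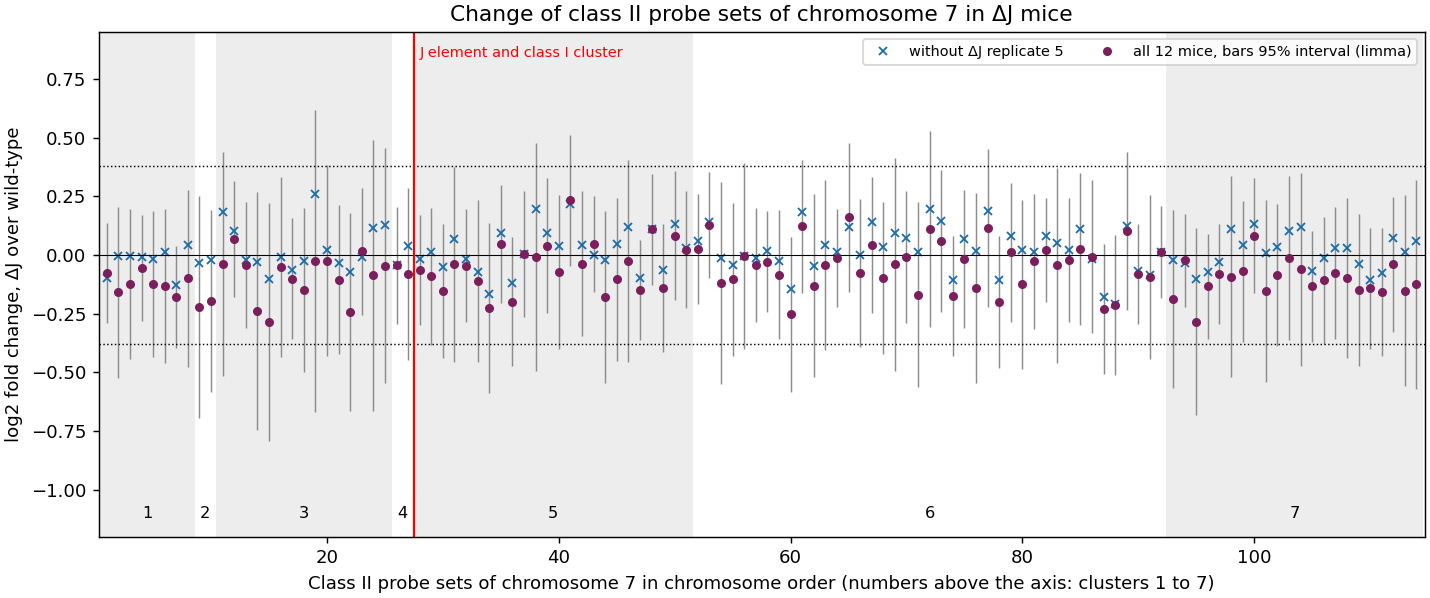
Log2 fold change (ΔJ over wild-type) of each class II probe set of chromosome 7 in chromosome order, with the 95% interval from limma; crosses show the value without ΔJ replicate 5, dotted lines mark 1.3-fold in either direction, shading separates clusters 1 to 7, and the red line marks the J element and the class I cluster. All values over the 12 mice lie between -0.29 and 0.23, inside the dotted lines.

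*Olfr521* (probe set 10555260) starts 2.74 Mb from the middle of the deletion and lies on the centromeric side (chr7:99767164-99768130, plus strand). Its level was -2.60, -1.94 and -1.48 (lowest, median and highest) in ΔJ mice and -2.29, -1.79 and -1.72 in wild-type mice. The groups overlapped, with both the lowest and the highest mouse in the ΔJ group. The log2 fold change was -0.08 (standard error 0.17, 95% interval -0.45 to 0.29, adjusted p = 0.995, limma), which is 94.5% of the wild-type signal.

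Its neighbour *Olfr520* (probe set 10555258, chr7:99735145-99736103, plus strand) had a level of -3.04, -2.83 and -2.46 (lowest, median and highest) in ΔJ mice and -2.92, -2.75 and -2.53 in wild-type mice. Again the ΔJ mice spanned the wild-type range. The log2 fold change was -0.04 (95% interval -0.29 to 0.20), and the interval of the signal ran from 81.7% to 115.2% of wild-type. *Olfr292*, the next class II gene on that side, lies 15.8 Mb away in cluster 3 and had a log2 fold change of -0.04 (95% interval -0.55 to 0.46).

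On the telomeric side, *Olfr693* (probe set 10566587, chr7:106677534-106678484, minus strand) is the closest class II gene, 4.17 Mb from the deletion. Its level was -0.74, -0.55 and -0.23 in ΔJ mice (lowest, median and highest) and -0.55, -0.43 and -0.34 in wild-type mice. Every wild-type mouse lay inside the ΔJ range. The log2 fold change was -0.06 (95% interval -0.30 to 0.17). The next probe sets, *Olfr694*/*Olfr704* and *Olfr695*, had log2 fold changes of -0.09 (95% interval -0.38 to 0.20) and -0.15 (95% interval -0.44 to 0.13). The lowest value of each was that of ΔJ replicate 5, and without this mouse the fold changes were 0.02 and -0.05.

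The class I genes at the telomeric end of their cluster, *Olfr690*, *Olfr691* and *Olfr692*, lie at about the same distance from the deletion as *Olfr521*, on the other side. *Olfr692*, 2.86 Mb away, had a level of -2.13 ± 0.18 in ΔJ mice and -1.65 ± 0.18 in wild-type mice (SD, n = 6 each), a log2 fold change of -0.48 (adjusted p = 0.019, limma), and it was called. *Olfr690* was called as well (-0.66, adjusted p = 0.0021, limma). *Olfr691*, between them at 2.83 Mb, was not called (-0.28, adjusted p = 0.40, limma). To compare the changes themselves, the levels of *Olfr521*, *Olfr520* and *Olfr693* were subtracted from that of each class I gene in each mouse and the groups were compared with a two-sided exact permutation test, over 9 gene pairs chosen after their values were seen. The change of *Olfr692* was lower than that of *Olfr521* by 0.40 on the log2 scale (adjusted exact permutation p = 0.031), of *Olfr520* by 0.43 (adjusted exact p = 0.019) and of *Olfr693* by 0.42 (adjusted exact p = 0.024). *Olfr690* differed from *Olfr520* and *Olfr693* (adjusted exact permutation p = 0.019 for both) but missed the threshold against *Olfr521* (0.052), and for *Olfr691* the adjusted exact p was 0.089 to 0.40. With mice paired by replicate number, an exact sign-flip permutation test, whose smallest possible p is 0.031, gave an adjusted p of 0.094 for each pair with *Olfr690* or *Olfr692*, and none of the 9 passed. The level of *Olfr692* minus that of *Olfr521* was lower in the ΔJ mouse in 5 of 6 mouse pairs. The 9 tests share genes and mice and are not independent.

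**Figure D2:**
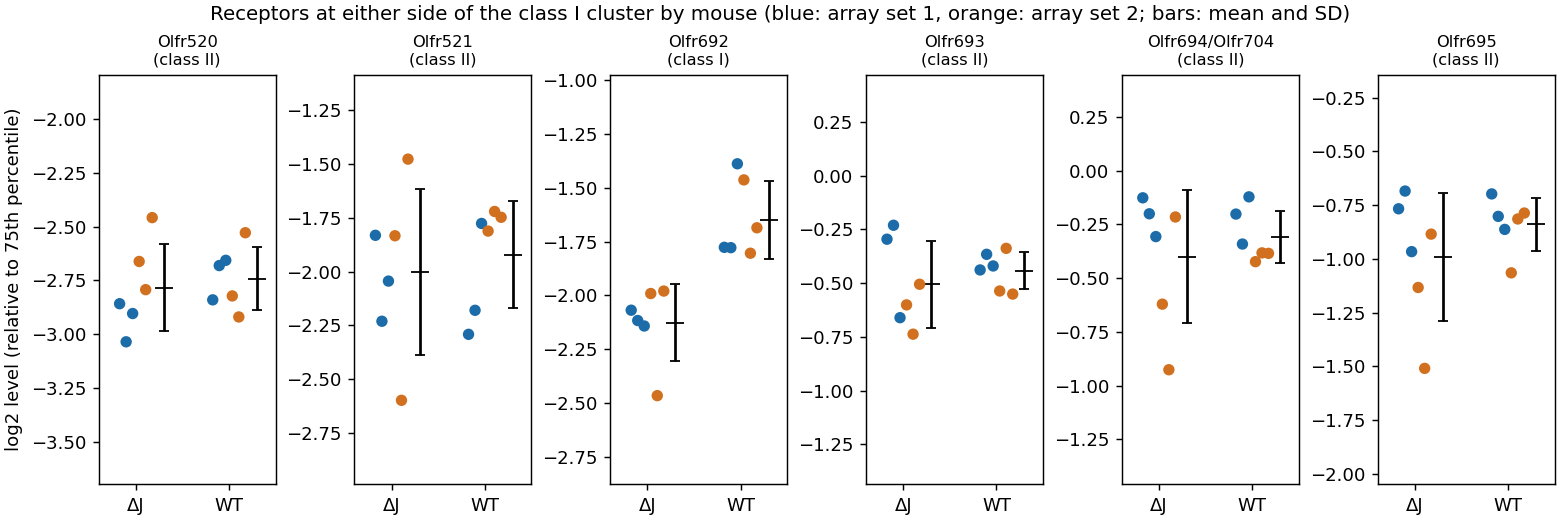
Level of the class II receptors nearest to the class I cluster, and of *Olfr692* at its telomeric end, in each ΔJ (left) and wild-type (right, WT) mouse; points are mice, blue for array set 1 and orange for array set 2, and bars show the mean and SD of 6 mice. Each vertical axis spans the same range of log2 levels, and the genotypes overlap in all 5 class II panels.

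Among the receptors known from other work, *Olfr17*, whose neurons have been widely used to trace axons to their glomeruli, had a level of -0.19, 0.21 and 0.41 (lowest, median and highest) in ΔJ mice and 0.07, 0.35 and 0.50 in wild-type mice. The log2 fold change was -0.14 (95% interval -0.41 to 0.13). *Olfr2*, an octanal receptor, had a level of -1.93, -0.99 and -0.79 in ΔJ mice and -1.47, -1.19 and -0.84 in wild-type mice. Its log2 fold change was -0.02 (95% interval -0.45 to 0.41). *Olfr6* had a log2 fold change of -0.18 (95% interval -0.55 to 0.19). All 3 lie in cluster 5, and ΔJ replicate 5 was the lowest of the 12 mice in each.

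The probe set with the smallest p was *Olfr707*, also in cluster 5, and it was the highest estimate of the 114. Its level was -3.32, -2.90 and -2.82 (lowest, median and highest) in ΔJ mice and -3.53, -3.26 and -2.84 in wild-type mice, and the groups overlapped. The log2 fold change was 0.23 (95% interval -0.04 to 0.51, adjusted p = 0.923, limma). *Olfr707* also shares a symbol with another probe set, *Olfr707*/*Olfr1532-ps1*/*Olfr709-ps1*, whose log2 fold change was -0.04. The remaining small p-values were of probe sets lower in ΔJ mice, *Olfr513* (-0.23, adjusted p = 0.961), *Olfr1349* (-0.18, adjusted p = 0.966), *Olfr477* (-0.25) and *Olfr702* (-0.20), both with an adjusted p of 0.995 from limma. The lowest estimate was that of *Olfr305*, -0.29 (95% interval -0.79 to 0.22), in cluster 3.

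By cluster, the median log2 fold change was -0.12 in cluster 1, -0.21 in cluster 2, -0.05 in cluster 3, -0.06 in cluster 4, -0.04 in cluster 5, -0.03 in cluster 6 and -0.10 in cluster 7. All 8 probe sets of cluster 1 and both of cluster 2 had negative estimates, and so had 21 of 22 in cluster 7. In cluster 3, 13 of 15 had negative estimates, and in cluster 4, the closest, both had. In clusters 5 and 6, within 6.38 Mb, the counts were 16 of 24 and 28 of 41. In all, 90 of 114 estimates were negative, against 65.1% of all OR probe sets and 58.2% of class II probe sets on other chromosomes. The estimates share the same 12 mice, so this is a description and carries no test. With arrays shifted by their median in place of the 75th percentile 69 of 114 were negative, against 52.5% of all OR probe sets and 44.6% of class II probe sets on other chromosomes. With quantile normalization 74 of 114 were, against 54.2% and 46.3% of the same groups. With no array shift 86 of 114 were, against 61.2% of all OR probe sets and 53.4% of class II probe sets on other chromosomes. With a shift by class II probe sets of other chromosomes 81 were, against 58.4% and 50.5%. The last share is that of the group on which the shift was set. Across the 114 probe sets, which share arrays and probe chemistry, Spearman's rho between log2 fold change and distance was -0.28 and Pearson's r was -0.25. Among the 67 probe sets within 10 Mb rho was 0.06.

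The size of the lean depended on 1 mouse. ΔJ replicate 5, a female, had the lowest value of all 12 mice in 74 of 114 class II probe sets on chromosome 7, in 46.2% of class II probe sets on other chromosomes and in 20.9% of all probe sets. Without it, 53 of 114 estimates were negative, against 44.2% of all OR probe sets and 35.2% of class II probe sets on other chromosomes, the median was 0.01 in place of -0.08, and rho with distance was -0.12 in place of -0.28. The medians of clusters 1, 2 and 7 were then -0.01, -0.03 and 0.01. With the replicate block and without this mouse, 66 of 114 were negative, against 54.2% of all OR probe sets and 46.9% of class II probe sets on other chromosomes. This mouse also had lower signals of *Gnal*, which encodes the olfactory G protein subunit (3.42, against 3.93 to 4.29 in the other 11 mice), and of *Stoml3* (4.51, against 5.00 to 5.13), whereas *Omp*, the olfactory marker protein gene (3.98, against 3.88 to 4.05), *Adcy3* (3.12, against 2.92 to 3.24) and *Cnga2* (3.39, against 3.31 to 3.53) lay within the range of the others. Over all marker lists, 10 of 34 genes lay outside the range of the other 11 mice in ΔJ replicate 5. There were 7 below, against 20.9% of all probe sets, and 3 above, for which no share over all probe sets was taken. Those above were *Gap43* (1.81, against 1.12 to 1.61) and *Stmn2* (3.50, against 3.03 to 3.41) of the immature OSN list and *Krt18* (2.08, against 1.33 to 1.83) of the sustentacular list. The rest of the immature OSN list, *Gng8* (0.36, against 0.26 to 1.10) and *Dpysl3* (2.24, against 2.13 to 2.54), lay within the range, in its lower part. Those below included *Trp63* (-0.61, against -0.25 to 0.19) of the basal list and *Cyp2g1* (4.78, against 4.88 to 5.00) of the sustentacular list. The mean of the 5 mature OSN markers was 3.68 in ΔJ replicate 5, against 3.88 to 3.99 in the other 5 ΔJ mice and 3.82 to 3.98 in the wild-type group. The part of cell composition in the class II values of this mouse was not tested.

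The mean level over the 114 probe sets was -1.32, -1.41, -1.51, -1.67, -1.99 and -1.45 in ΔJ replicates 1 to 6 and -1.40, -1.48, -1.28, -1.59, -1.61 and -1.59 in wild-type replicates 1 to 6. ΔJ replicate 5 was the lowest and wild-type replicate 3 the highest, and the other 10 mice overlapped between groups. The mean was -1.56 ± 0.24 in ΔJ mice and -1.49 ± 0.13 in wild-type mice (SD, n = 6 each). The corresponding mean of the 877 class II probe sets on other chromosomes, chosen without pseudogenes, was -1.91 ± 0.21 in ΔJ mice and -1.89 ± 0.17 in wild-type mice. The mean on chromosome 7 minus that on other chromosomes, taken within each mouse to compare mice and not genes, was 0.27 to 0.45 in the ΔJ group and 0.36 to 0.44 in the wild-type group.

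**Figure D3:**
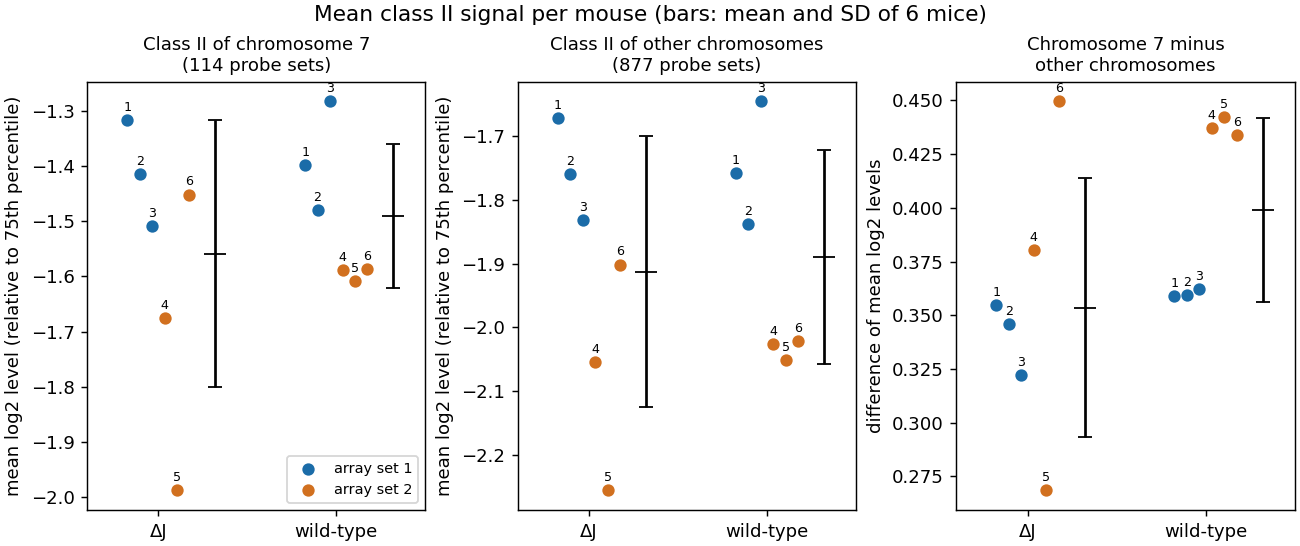
Mean log2 level of the class II probe sets of chromosome 7 (left), of those of other chromosomes (middle) and their difference within each mouse (right), ΔJ mice on the left of each panel and wild-type mice on the right; numbers are replicates, colours are array sets, and bars show the mean and SD of 6 mice. ΔJ replicate 5 is the lowest mouse in all 3 panels.

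Class II levels also differed between array sets, and most estimates were higher in males than in females. The arrays fall into 2 sets by the SD over an array, which was 2.07 to 2.13 in replicates 1 to 3 and 2.20 to 2.23 in replicates 4 to 6, with 3 ΔJ and 3 wild-type mice in each, and no label names them. The sets were found in the spread of these same values, so p-values for array set are descriptive and cannot test whether the sets exist. With genotype in the model, 52 of 114 probe sets passed an adjusted p under 0.05 for array set (limma), against 56.1% of all OR probe sets, and all 52 were lower in set 2. The count depended on the scaling, while most that passed were lower in set 2 each time. With the median shift 33 passed (31 lower and 2 higher, against 41.8% of all OR probe sets). With no array shift 22 passed (18 lower and 4 higher, against 31.7%), and with quantile normalization 34 did (29 lower and 5 higher, against 39.5%). Of all OR probe sets, 88.1% were lower in set 2, as were 96 of the 114. The largest difference was that of *Olfr299* in cluster 3, with levels of -3.52, -2.34 and -2.03 in set 2 and -1.83, -1.70 and -1.15 in set 1 (lowest, median and highest), a log2 difference of -0.86 (standard error 0.20, adjusted p = 0.0028). *Olfr293* (-0.79) and *Olfr305* (-0.73) in the same cluster followed. By cluster, 10 of 15 probe sets in cluster 3 and 23 of 41 in cluster 6 differed between the sets, against 1 of 8 in cluster 1 and 6 of 22 in cluster 7. *Olfr521* and *Olfr520* did not pass the test (0.19 and 0.13). The mean of the 4 respiratory epithelium markers was 1.86 to 2.37 in set 2 and 1.59 to 1.78 in set 1, with no overlap. That of the vomeronasal markers, both below the background gauge on average, was -4.14 to -3.89 in set 2 and -3.86 to -3.39 in set 1, also with no overlap, and that of the mature OSN markers was 3.68 to 3.99 in set 2 and 3.82 to 3.91 in set 1. The part of tissue composition in the difference between array sets was not tested.

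Within the array sets, the median log2 fold change was -0.02 in set 1, with 71 of 114 estimates negative, and -0.12 in set 2, which holds ΔJ replicate 5, with 84 negative. In 53 probe sets the estimate was negative in both sets, and in 12 it was positive in both. The difference between the sets was tested as an interaction with limma, which passed an adjusted p under 0.05 in 0 of 114 probe sets and in 0% of all OR probe sets, and an unadjusted p under 0.05 in 1 of 114, *Olfr512* (interaction 0.40 on the log2 scale, adjusted p = 0.991), against 1.98%. *Olfr512* lies at -5.35 in either genotype, below the background gauge.

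Of the 114 probe sets, 107 had higher estimates in the 5 males than in the 7 females (genotype in the model), with a median log2 difference of 0.21. The same direction held in 91.8% of all OR probe sets. In limma 17 probe sets had an unadjusted p under 0.05, against 11% of all OR probe sets, and none had an adjusted p under 0.05. The largest differences were those of *Olfr299* (0.45), *Olfr310* (0.43) and *Olfr291* (0.42). With the replicate number as a block, 3 passed an adjusted p under 0.05, *Olfr301* (0.37, adjusted p = 0.045), *Olfr477* (0.38, adjusted p = 0.045) and *Olfr6* (0.43, adjusted p = 0.0498), against 3.3% of all OR probe sets. *Olfr301* and *Olfr6* were not chosen for this by the rule on named genes. ΔJ replicate 5 is a female, and without it 8 of 114 had an unadjusted p under 0.05, against 6.35% of all OR probe sets, and the median difference was 0.14. Sex and age are entangled in array set 2, where both males were P33 and every P30 mouse was female. Within that set, P33 mice had higher estimates than P30 mice in 97 of 114 probe sets (genotype in the model, median 0.16). The same direction held in 72.2% of all OR probe sets. The mature OSN markers had a mean of 3.88 to 3.99 in males and 3.68 to 3.98 in females, and their part was not tested.

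**Figure D4:**
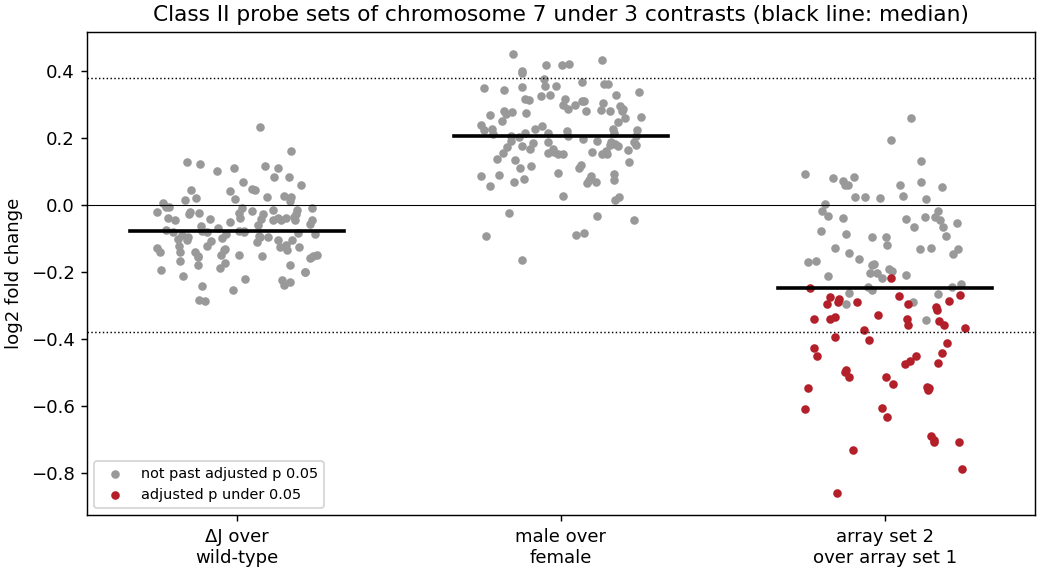
Log2 fold changes of the class II probe sets of chromosome 7 for ΔJ over wild-type, male over female, and array set 2 over array set 1; red points passed an adjusted p under 0.05 (limma), black lines are medians and dotted lines mark 1.3-fold in either direction. Only the comparison of array sets has red points, 52 of 114, all below 0, and the sets were found in the spread of these same values.

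With the replicate number as a block, none of the 114 probe sets was called in ΔJ against wild-type mice, against 7.17% of all OR probe sets at an adjusted p under 0.05. An unadjusted p under 0.05 was then found in 4 probe sets, against 12.1% of all OR probe sets. They were *Olfr305* (-0.29), *Olfr700* (-0.22) and *Olfr513* (-0.23), lower in ΔJ mice, and *Olfr707* (0.23), with an adjusted p of 0.32 to 0.35. *Olfr700* was named after its value was seen. The interval lay within 1.3-fold in 74 of 114 probe sets in that fit, against 66.4% of all OR probe sets. The share was 74.8% for class II probe sets on other chromosomes.

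Some probe sets cannot be assigned to a single gene. *Olfr45*, *Olfr46*, *Olfr60*, *Olfr61*, *Olfr535*, *Olfr538*, *Olfr539* and *Olfr541* of cluster 7 are covered by 11 probe sets, 4 of which carry several of these symbols, and signals of these genes cannot be separated there. All 11 estimates were negative, from -0.15 to -0.01, and 4 were negative without ΔJ replicate 5. The probe set *Olfr46*/*Olfr538*/*Olfr60*/*Olfr541*/*Olfr45*/*Olfr539*/*Olfr61* had a level of 1.84, 2.42 and 2.58 (lowest, median and highest) in ΔJ mice and 2.30, 2.43 and 2.70 in wild-type mice, with a log2 fold change of -0.08. The spread between mice differed among the 114, from a residual SD of 0.09 (*Olfr516*/*Olfr519*/*Olfr517*/*Olfr518*/*Olfr514*) to 0.62 (*Olfr299*), with a median of 0.26. In 86 of 114 the SD of the ΔJ mice, which include ΔJ replicate 5, exceeded that of the wild-type mice. This count was not taken over all OR probe sets or without that mouse. The SD of the mean level over the 114 probe sets was 0.24 in ΔJ mice and 0.13 in wild-type mice. In the 5 ΔJ mice other than replicate 5 it was 0.13.

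Genes that act with ORs were not called. In a list of 24 genes of OR signalling, trafficking and choice, 0 passed an adjusted p under 0.05 in a limma fit over all 35556 probe sets, against 0.135% of all probe sets, and none had an unadjusted p below 0.05. Of the 24, 13 were lower, with a median of -0.01, and the median of all probe sets was -0.03. In signal transduction, *Gnal* was 3.93 ± 0.29 in ΔJ mice and 4.08 ± 0.14 in wild-type mice (SD, n = 6 each), *Cnga2*, a subunit of the cyclic nucleotide-gated channel, had a log2 fold change of 0.06, and *Adcy3*, the olfactory adenylyl cyclase, 0.04. *Rtp1*, which carries ORs to the cell surface, had 0.00. *Lhx2* and *Ldb1*, which bind OR enhancers, had 0.00 and -0.01. As a check of the labels, class I genes beside the deletion had lower levels in ΔJ mice, since *Olfr544* was -3.40 ± 0.12 in ΔJ mice and -1.56 ± 0.12 in wild-type mice, and *Olfr552* was -3.33 ± 0.39 in ΔJ mice and -0.66 ± 0.22 in wild-type mice (SD, n = 6 each). The means of the other marker lists overlapped between the genotypes, with immature OSN markers at 1.82 to 2.02 in the ΔJ group and 1.77 to 1.97 in the wild-type group, and sustentacular markers at 2.74 to 2.91 in the ΔJ group and 2.69 to 2.92 in the wild-type group.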

How the data were processed

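RNA of the MOE of 6 ΔJ and 6 wild-type mice was hybridized to Mouse Gene 1.0 ST arrays (Affymetrix), each mouse to its own. Log2 signals of 35556 probe sets were deposited by the authors. Expression Console (Affymetrix) is named in the submitters' processing notes, with no background or summary steps. The methods shifted each array by its 75th percentile, which was repeated here (8.40 to 8.56 for ΔJ, 8.38 to 8.55 for wild-type). Class, position (mm10) and symbols came from the OR list of the study, and none of its expression values were used. Genotype was the sole term of a linear model (lmFit, eBayes; limma 3.58.1, R 4.3.3) fitted to all OR probe sets, Benjamini-Hochberg adjustment and unadjusted 95% intervals. The number of mice limits the precision. The members, lists and tests were chosen with earlier results of these data known.

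On simulated data for this comparison over all OR probe sets, the calls found 26% of changes of 1.3-fold, 80% at 1.5-fold, 94% at 2-fold and 100% at 4-fold, with 7 false calls among 1013 unchanged. The named members are the nearest and farthest by position, the known receptors, and those with extreme p, fold change, level, spread, sex or array set difference. Other genes are named where a result turns on them. Windows around gene starts came from RefSeq (GRCm38.p6).

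Replicate numbers come from the labels, which do not say what they share. Deviations of the ΔJ and wild-type mouse of the same number from their group means correlated at 0.528, 0.394, 0.478, 0.431, 0.171 and 0.506 in the order of their numbers. Each exceeds 0.1, but mice of the same number also share an array set, so these values cannot show that the numbers pair mice. ΔJ replicate 2 correlated best with wild-type replicate 1, and ΔJ replicate 5 with wild-type replicate 4. Results of the fit with the replicate block are given as an alternative where it changes a count. Alternatives were other array scalings, a fit over all probe sets, a filter on dim probe sets, blocks and covariates, single array sets, P30 mice and leaving out each mouse.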

Additional observations from a re-analysis of the deposited data

Results flagged for a closer look

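Of 88 sets of 6 mice examined, 8 held a mouse whose gap to the nearest other mouse was large for the range of its group. The cutoff is one that about 1 in 20 independent groups would pass. That rate cannot be applied here, because the sets share the same mice and some members were named for their spread or differences. In 5 of the 8 the mouse was ΔJ replicate 5. Its mean level in the cluster *Olfr1344* to *Olfr1350* was -0.74, against -0.29 in the next lowest ΔJ mouse, and its levels of *Olfr1349* (0.16, next 0.40), *Olfr46*/*Olfr538*/*Olfr60*/*Olfr541*/*Olfr45*/*Olfr539*/*Olfr61* (1.84, next 2.34), *Olfr524* (-0.54, next 0.34) and *Olfr310* (-4.60, next -3.49) were also the lowest of the ΔJ group.

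Wild-type replicate 3 stood high in its group in the cluster *Olfr1344* to *Olfr1350* (-0.031, next -0.15) and in the cluster *Olfr522* to *Olfr541* (0.46, next 0.23). It had the highest value of the 12 mice in 45 of 114 probe sets. Wild-type replicate 4 was low for *Olfr310* (-3.98, next -3.41).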

How the results depend on the processing

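No class II probe set of chromosome 7 was called in any of the alternatives run. Leaving out each mouse in turn gave 53 to 96 negative estimates of 114 (the lowest without ΔJ replicate 5), a median log2 fold change of -0.13 to 0.01, 31 to 76 intervals within 1.3-fold, 0 to 2 unadjusted p under 0.05 and rho with distance of -0.33 to -0.12. The replicate block and the array set block each gave 4 probe sets with an unadjusted p under 0.05, against 0 with all 12 mice and no block. The array median, no shift, quantile normalization, the fit over all probe sets, the sex and the age covariate and array set 1 alone gave 1 each. Intervals within 1.3-fold numbered 82 with a shift by class II probe sets of other chromosomes, 74 with the replicate block, 23 in P30 mice, 71 in array set 1 and 16 in array set 2. Between the sexes, 3 passed with the replicate block, which changed no other call. Between array sets 33 passed with the median shift (31 lower in set 2, against 41.8% of all OR probe sets), 22 with no shift (18 lower, against 31.7%) and 47 without ΔJ replicate 5 (45 lower, against 54.2%), a choice made after seeing the data. Negative estimates numbered 69 with the median shift, 74 with quantile normalization, 86 with no shift and 81 with the class II shift, against 52.5%, 54.2%, 61.2% and 58.4% of all OR probe sets. The shares of class II probe sets on other chromosomes were 44.6%, 46.3%, 53.4% and 50.5%, in the same order.

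Signs of small estimates turned under some settings. In array set 1 alone the log2 fold change was 0.047 (*Olfr521*), 0.013 (*Olfr693*), 0.011 (*Olfr694*/*Olfr704*), 0.0034 (*Olfr2*), 0.042 (*Olfr17*), 0.00087 (*Olfr533*/*Olfr530*/*Olfr536*), -0.029 (*Olfr516*/*Olfr519*/*Olfr517*/*Olfr518*/*Olfr514*), 0.026 (*Olfr523*), -0.067 (*Olfr710*), 0.20 (*Olfr299*), 0.029 (*Olfr290*) and 0.19 (*Olfr310*). With quantile normalization the log2 fold change was 0.0077 (*Olfr520*), 0.0047 (*Olfr2*), 0.031 (*Olfr299*) and 0.016 (*Olfr310*). In array set 2 alone the log2 fold change was 0.12 (*Olfr520*), 0.19 (*Olfr512*) and 0.049 (*Olfr471*). With shift by the array median the log2 fold change was 0.019 (*Olfr2*), 0.036 (*Olfr512*), 0.020 (*Olfr523*), 0.017 (*Olfr299*) and 0.0040 (*Olfr310*). With no array shift the log2 fold change was 0.0059 (*Olfr512*). With shift by class II of other chromosomes the log2 fold change was 0.016 (*Olfr512*) and 0.00067 (*Olfr523*). In P30 mice only the log2 fold change was -0.025 (*Olfr516*/*Olfr519*/*Olfr517*/*Olfr518*/*Olfr514*), 0.024 (*Olfr523*) and 0.0017 (*Olfr310*). With age covariate the log2 fold change was 0.0051 (*Olfr310*). Leaving out each mouse in turn turned the sign of the following estimates, which ranged over -0.19 to 0.038 (*Olfr521*), -0.11 to 0.0063 (*Olfr520*), -0.18 to 0.13 (*Olfr292*), -0.14 to 0.015 (*Olfr694*/*Olfr704*), -0.22 to 0.060 (*Olfr541*), -0.11 to 0.12 (*Olfr2*), -0.083 to 0.075 (*Olfr512*), -0.14 to 0.033 (*Olfr533*/*Olfr530*/*Olfr536*), -0.12 to 0.029 (*Olfr46*/*Olfr538*/*Olfr60*/*Olfr541*/*Olfr45*/*Olfr539*/*Olfr61*), -0.0063 to 0.040 (*Olfr516*/*Olfr519*/*Olfr517*/*Olfr518*/*Olfr514*), -0.055 to 0.0013 (*Olfr523*), -0.00086 to 0.078 (*Olfr710*), -0.26 to 0.11 (*Olfr293*), -0.21 to 0.26 (*Olfr299*) and -0.15 to 0.18 (*Olfr310*). The cause was not tested. Low signal limits *Olfr482*, *Olfr471* and *Olfr512*, below the background gauge. The highest *Kdm5d* value in females was -3.05. *Olfr702* and *Olfr310* had means below it in both genotypes, and *Olfr707* had a mean of -3.23 in wild-type mice and -2.99 in ΔJ mice.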
